A study of Mus musculus with 12 samples.

Results

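The upper glycolysis isoenzymes and enolases measured here were 10 genes: the hexokinases Hk1 and Hk2, the glucose phosphate isomerase Gpi1, the phosphofructokinases Pfkl, Pfkm and Pfkp, the aldolases Aldoa and Aldoc, and the enolases Eno1 and Eno2. They were taken by gene symbol from the 56350 genes of the count table, and where a symbol had several rows (Aldoa, with 2) the row with more counts was used. Of the 10 genes, 9 had more than 10 counts in at least 3 libraries and were tested among the 16484 genes that passed this filter. Aldoc did not pass it.

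RNAseq was done on cells of the mouse mesenchymal line MPC2, a conditionally immortalized line from one clone, with 3 libraries in each of 4 conditions. MSCs were undifferentiated cells kept at 33 °C and treated for 48 h with vehicle (DMSO) or with FG-4592 (Roxadustat) at 50 µmol/L. The osteocyte conditions came from MPC2 cells differentiated over 3 weeks at 37 °C with ascorbic acid and β-glycerophosphate, and received vehicle or FG-4592 in the same way. Differentiation, temperature and media changed together and cannot be told apart, and since nothing states that the 3 libraries of a condition came from separate cultures, p-values measure the spread between libraries, which may be technical.

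Library totals ranged from 52829185 to 68108470 counts, and the nearest library of every library was one of its own condition. Of 14 osteoblast and osteocyte genes listed, 11 were tested. In vehicle 7 of them were higher in osteocytes than in MSCs, among them Phex (0.977 and 57.6 CPM in MSCs and osteocytes) and Dmp1 (1.19 and 11.2 CPM), and 2 were lower, Alpl (76.6 and 61.0 CPM) and Ibsp (59.6 and 35.6 CPM), where 26% and 24.9% of all genes tested were higher and lower. With FG-4592 10 were higher in osteocytes than in MSCs, where 30.5% of all genes tested were. FG-4592 lowered 6 of the 11 in MSCs and 8 in osteocytes, where 20.4% and 22% of all genes tested fell, and raised 1 in each, Spp1 in MSCs and Fgf23 in osteocytes (0.0251 and 1.61 CPM). Phex stood at 2.83 CPM and Dmp1 at 2.06 CPM in FG-4592-treated osteocytes. Mepe, Pdpn and Sost had at most 2 counts in any library. Of 7 tested mesenchymal progenitor genes, 3 were higher and 2 lower in osteocytes in vehicle. Levels are given as CPM, the counts scaled by the TMM-adjusted total of the tested genes, and levels of different genes are compared only per kilobase of exon. A gene "rose" or "fell" where edgeR's quasi-likelihood test gave a false discovery rate (FDR) under 0.05, and it was "called" where its log2 fold change was also beyond 1 in either direction. All 12 libraries were fitted together, and ± marks the SD of 3 libraries for a level and the SE for a fold change.

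Hexokinases phosphorylate glucose as it enters the cell, glucose phosphate isomerase turns the product into fructose 6-phosphate, phosphofructokinase adds a further phosphate in the step that commits the sugar to glycolysis, and aldolase splits the molecule. Enolase acts later in the pathway, where it makes phosphoenolpyruvate. Most of these steps can be carried out by several isoenzymes encoded by separate genes that differ in regulation and in tissue, and several of these genes are textbook targets of hypoxia-inducible factor (HIF). FG-4592 inhibits the prolyl hydroxylases that mark HIF-α for degradation.

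HIF binds DNA at a short core, ACGTG or GCGTG, and these letters were searched on both strands from 250 bases before to 50 bases after each annotated start. RefSeq gave 19 such windows on GRCm38.p6 for the 10 genes, several of them overlapping. Where they overlap, in Aldoa, Pfkm and Eno1, the same match was counted in each window that held it. Either set of letters occurred in 14 of the 19 windows, against 43.8% of the 32851 windows of all genes (19.6% for ACGTG and 32.4% for GCGTG). By gene, 8 of the 10 had a match in at least one of their windows, a count that grows with the number of windows of a gene and has no share over all genes beside it. Hk2 is shown because its response to FG-4592 differed most between the cell types, and Aldoa as a gene whose response did not pass that test. Both are the 250 bases before a start, read 5′ to 3′ on the strand of the gene, at chr6:82774455-82774704 for Hk2 and chr7:126799255-126799504 for Aldoa, and both genes lie on the minus strand. Capitals mark the matches, which read CACGT because ACGTG lies on the opposite strand.
Hk2: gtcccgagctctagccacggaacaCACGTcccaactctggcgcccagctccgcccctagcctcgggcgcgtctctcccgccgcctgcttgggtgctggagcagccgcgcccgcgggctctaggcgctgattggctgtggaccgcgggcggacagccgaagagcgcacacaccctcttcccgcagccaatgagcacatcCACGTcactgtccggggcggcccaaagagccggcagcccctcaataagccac
Aldoa: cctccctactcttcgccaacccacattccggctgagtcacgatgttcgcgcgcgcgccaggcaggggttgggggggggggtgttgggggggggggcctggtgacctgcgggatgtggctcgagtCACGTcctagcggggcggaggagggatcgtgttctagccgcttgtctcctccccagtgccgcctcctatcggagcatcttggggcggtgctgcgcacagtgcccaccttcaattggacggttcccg

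The bases around matches of the phosphofructokinases Pfkl (chr10:78009890-78009918) and Pfkp (chr13:6648891-6648919 and chr13:6648823-6648851), both on the minus strand, and of Eno1 (chr4:150237099-150237127, plus strand) are shown as short stretches, because their windows run over annotated exons. They start 99 bases before the start of Pfkl, 136 and 68 bases before that of Pfkp and 86 bases before one start of Eno1, counted to the first capital. The capitals CACGC of Eno1 are GCGTG on the opposite strand.
Pfkl, 99 bases: atttgtagactgGCGTGcgctccgccttt
Pfkp, 136 bases: ccctaacagaacGCGTGtccatactatcc
Pfkp, 68 bases: ggccccgcccttGCGTGagtcccgcccat
Eno1, 86 bases: ggccgcctcggtCACGCtcttctattgga

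Gpi1 and Eno2 held neither set of letters in their windows, and Pfkm held them in 3 of its 4 windows. A match is a string of letters and not a measured binding site.

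FG-4592 raised 8 of the 9 tested genes in MSCs and 8 in osteocytes, and 7 of them were called in both cell types: Hk1, Hk2, Gpi1, Pfkl, Pfkp, Aldoa and Eno1. Over all genes tested, 4.12% were called higher in MSCs and 6.25% in osteocytes, and 17.6% and 21.9% rose. In the other direction none of the 9 was called in either cell type, where 5.17% and 4.26% of all genes were called lower, and none fell in MSCs, where 20.4% did. The libraries of vehicle and FG-4592 did not overlap for 8 of the 9 genes in each cell type, all higher, where 23.2% of all genes tested did so in MSCs and 26.1% in osteocytes, and Eno2 was the single gene without overlap in the lower direction, in osteocytes, where 25.7% did so, against 0 of the 9 and 27.3% in MSCs. The other gene that rose was Pfkm, the muscle-type phosphofructokinase, by 1.19-fold in MSCs and 1.41-fold in osteocytes. Eno2, the neuronal enolase, did not pass the test in MSCs and fell in osteocytes, where 22% of all genes tested fell. The median log2 fold change of the 9 genes was 2.36 in MSCs and 2.16 in osteocytes, beside -0.05 and 0.00 over all genes tested. In bulk libraries, more RNA per cell and more cells with the RNA cannot be told apart.

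**Figure D1:**
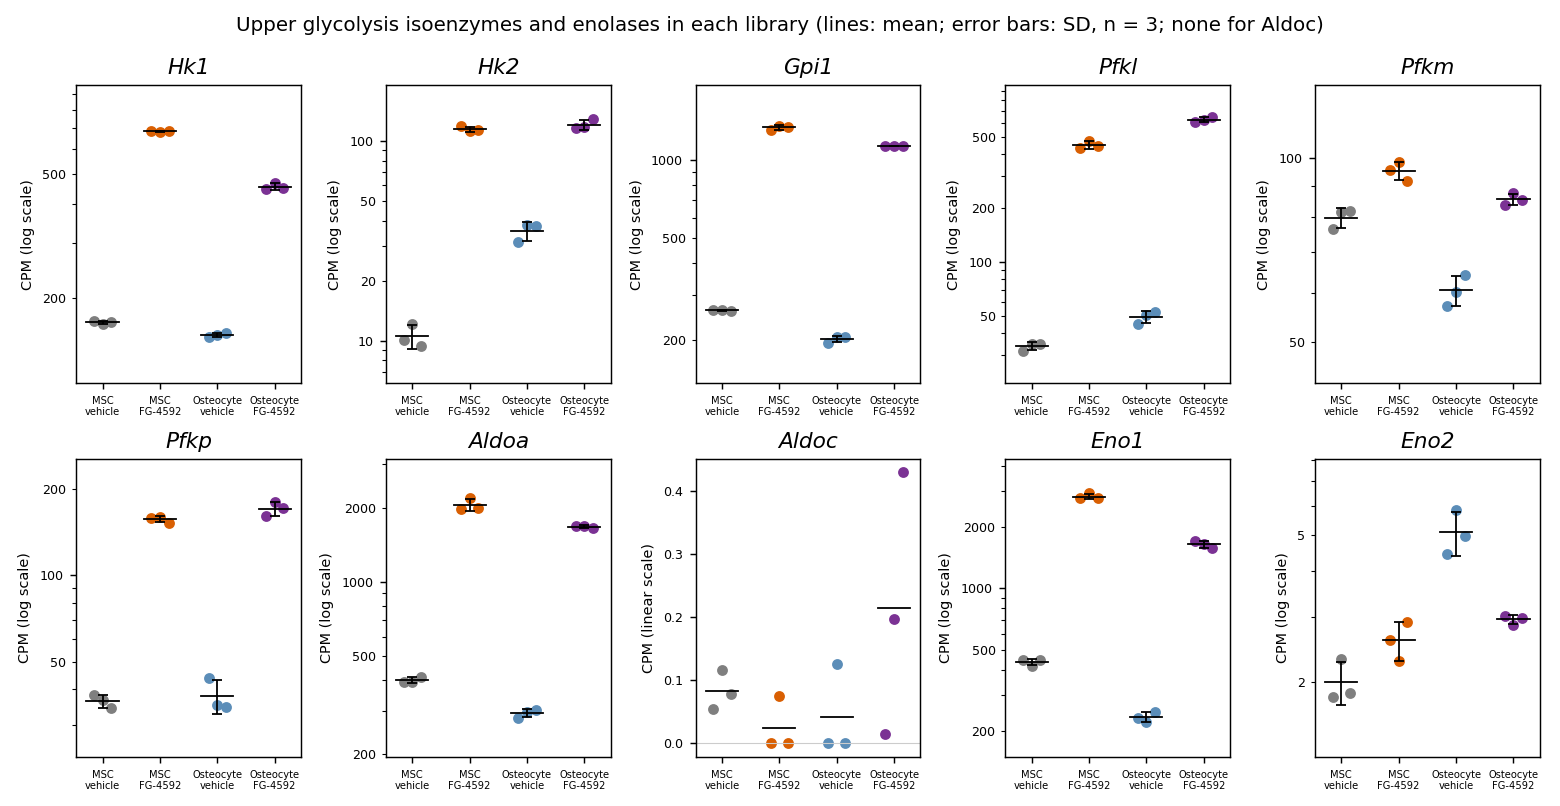
Level of each gene in each of the 12 libraries, in CPM on a log axis (linear for Aldoc), with points for libraries, lines for means of 3 and error bars for the SD (none for Aldoc). All genes except Pfkm, Aldoc and Eno2 stand far higher in both FG-4592 conditions than in vehicle, Hk2 starts higher in vehicle-treated osteocytes, and Eno2 is highest there.

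The hexokinases differed in how much of the response depended on the cell type. Hk1 (chr10:62268855-62379908 of mm10, minus strand), the hexokinase found in most tissues, stood at 169, 166 and 168 CPM in vehicle-treated MSCs and at 684, 681 and 683 CPM with FG-4592. In osteocytes it stood at 150.5, 152 and 155 CPM in vehicle and 447, 466 and 449 CPM with FG-4592. No vehicle library reached a FG-4592 library in either cell type. The rise was 4.07-fold in MSCs (log2 2.03 ± 0.0412, FDR 2.17e-15) and 2.97-fold in osteocytes (log2 1.57 ± 0.0407, FDR 2.98e-14). The response was smaller in osteocytes, with a difference of -0.45 ± 0.0563 on the log2 scale (FDR 2.48e-05). Hk1 shares 157 exonic bases with Hk1os on the opposite strand, which had at most 127 counts in any library.

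Hk2 (chr6:82725025-82774454, minus strand), the inducible hexokinase of muscle and fat, stood at 10.1, 12.2 and 9.37 CPM in vehicle-treated MSCs and at 119, 113 and 113 CPM with FG-4592. In osteocytes it stood at 31.1, 37.8 and 37.4 CPM in vehicle and 117, 118 and 129 CPM with FG-4592. The vehicle-treated osteocytes were already above every vehicle-treated MSC library, whereas the FG-4592 libraries of the cell types overlapped. The rise was 10.9-fold in MSCs (log2 3.45 ± 0.0944, FDR 9.53e-14) and 3.42-fold in osteocytes (log2 1.77 ± 0.0859, FDR 7.96e-11). The response was smaller in osteocytes, with a difference of -1.67 ± 0.123 on the log2 scale (FDR 1.02e-07). Hk2 was 3.36-fold higher in osteocytes than in MSCs in vehicle (FDR 1.61e-10), and with FG-4592 its difference of 0.08 ± 0.0822 did not pass the test (FDR 0.46).

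Gpi1 and Aldoa had similar values for their rises in both cell types. Gpi1 (chr7:34201330-34230336, minus strand) stood at 263, 262 and 260.4 CPM in vehicle-treated MSCs and 1309.9, 1362 and 1353 CPM with FG-4592, and in osteocytes at 196, 206 and 207 CPM and 1134, 1138 and 1140.1 CPM. The FG-4592 libraries lay far above the vehicle libraries in both cell types, with rises of 5.12-fold (FDR 3.71e-16) and 5.61-fold (FDR 2.62e-16). The exons of Gpi1 share 741 bases with the opposite-strand transcript Gm26762, which had at most 61 counts in any library. Stretches at least 98% identical to Gm26762 and the pseudogene Gm1840, which had 16 to 188 counts, cover 45.5% of the principal Gpi1 transcript, and how reads were divided among them was not tested. Aldoa (chr7:126795234-126800751, minus strand), the aldolase of muscle and most other tissues, stood at 393, 393 and 413 CPM in vehicle-treated MSCs and 1978, 2191 and 1988 CPM with FG-4592, and in osteocytes at 281, 298 and 301 CPM and 1689.5, 1677 and 1648 CPM. No vehicle library reached a FG-4592 library. The rises of Aldoa were 5.13-fold (FDR 3.33e-15) and 5.69-fold (FDR 1.30e-15). Neither response differed between the cell types at an FDR under 0.05: the difference was 0.13 ± 0.0557 for Gpi1 (FDR 0.1) and 0.15 ± 0.0671 for Aldoa (FDR 0.12), although without the second library of FG-4592-treated MSCs the Aldoa difference was 0.20 at an FDR of 0.038.

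Aldoc (chr11:78322968-78327781, plus strand), the aldolase best known from brain, was barely detected. Its counts were 3, 7 and 5 in vehicle-treated MSCs, 0, 5 and 0 in MSCs with FG-4592, 0, 7 and 0 in osteocytes with vehicle and 1, 12 and 26 in osteocytes with FG-4592. A count of 0 in a library of this depth allows up to 3 counts, or 0.0447 to 0.0545 CPM, for counting error only. The highest 2 counts both came from FG-4592-treated osteocytes, but the lowest library of that condition lay within the range of the vehicle libraries.

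The 3 phosphofructokinases differed in the size of their rise with FG-4592. Pfkl (chr10:77986947-78010083, minus strand), the liver-type subunit, stood at 31.7, 34.8 and 34.6 CPM in vehicle-treated MSCs and 430.2, 473 and 445 CPM with FG-4592, and in osteocytes at 44.8, 50.7 and 52.6 CPM and 608, 621 and 645 CPM. Every FG-4592 library lay above every vehicle library. The rise of Pfkl was the largest of the 9 tested genes in both cell types, 13.3-fold in MSCs (log2 3.74 ± 0.0679, FDR 5.64e-16) and 12.6-fold in osteocytes (log2 3.66 ± 0.0673, FDR 5.19e-16). The difference between these responses was -0.08 ± 0.0868 and did not pass the test (FDR 0.59).

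Pfkp (chr13:6579768-6648777, minus strand), the platelet-type subunit, stood at 38.1, 36.8 and 34.3 CPM in vehicle-treated MSCs and 159, 159 and 152 CPM with FG-4592, and in osteocytes at 43.9, 35.4 and 34.8 CPM and 161, 179 and 171 CPM. It rose 4.30-fold in MSCs (FDR 3.86e-12) and 4.48-fold in osteocytes (FDR 1.93e-12), with no overlap between the libraries compared. Pfkp shares 748 exonic bases with Pitrm1 on the opposite strand, and strand was not used in counting, so that read pairs there were counted for both. Pitrm1 had up to 5270 counts in a library and Pfkp at least 1969. How much of the Pfkp counts came from those bases was not tested.

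Pfkm (chr15:98092589-98132451, plus strand) stood at 76.3, 81.4 and 81.6 CPM in vehicle-treated MSCs and 95.5, 98.2 and 91.6 CPM with FG-4592, and in osteocytes at 57.3, 60.4 and 64.3 CPM and 83.7, 87.4 and 85.1 CPM. The libraries of vehicle and FG-4592 did not overlap, but the rise was only 1.19-fold in MSCs (log2 0.25 ± 0.0525, FDR 0.0011) and 1.41-fold in osteocytes (log2 0.49 ± 0.0528, FDR 1.12e-06). The response was larger in osteocytes by 0.24 ± 0.0744 (FDR 0.026), a difference that no longer passed the test when any of 6 of the 12 libraries was left out (FDR 0.064 to 0.139). Pfkm shares 341 exonic bases with Gm26513 on the same strand, which had at most 30 counts in any library. It also shares 18 with Senp1 on the opposite strand, which had up to 3248 counts where Pfkm had at least 3359.

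Eno1, the enolase of most tissues, and Eno2 parted with FG-4592. Eno1 (chr4:150236721-150248879, plus strand) stood at 443, 419 and 447 CPM in vehicle-treated MSCs and 2777, 2929.6 and 2768 CPM with FG-4592, and in osteocytes at 231, 222 and 249 CPM and 1703, 1657 and 1574 CPM. The FG-4592 libraries lay above all vehicle libraries in both cell types. Eno1 rose 6.47-fold in MSCs (log2 2.69 ± 0.0531, FDR 1.53e-15) and 7.03-fold in osteocytes (log2 2.81 ± 0.0535, FDR 6.85e-16). Stretches at least 98% identical to transcripts of Eno1b and the pseudogene Gm4735 cover 85.6% of the principal Eno1 transcript, and how reads were divided among them was not tested. Over the libraries the copies had between 35 and 756 counts (Eno1b) and between 28 and 604 counts (Gm4735), and Eno1b rose 7.48-fold in MSCs (FDR 4.32e-08) and 6.55-fold in osteocytes (FDR 1.41e-07).

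Eno2 (chr6:124760053-124769673, minus strand) stood at 1.82, 2.30 and 1.87 CPM in vehicle-treated MSCs and 2.60, 2.28 and 2.90 CPM with FG-4592, and these libraries overlapped. In osteocytes it stood at 4.44, 5.84 and 4.99 CPM in vehicle and 3.02, 2.86 and 2.99 CPM with FG-4592, and every vehicle library was above every FG-4592 library. The log2 fold change was 0.38 ± 0.173 in MSCs (FDR 0.10), and in osteocytes Eno2 fell 1.72-fold (log2 -0.78 ± 0.167, FDR 0.0011). The difference between the responses was -1.16 ± 0.240 (FDR 0.0021). The 7 neuron markers listed summed to 1.85 to 2.09 CPM in vehicle-treated MSCs, 3.40 to 3.96 CPM in MSCs with FG-4592, 2.98 to 3.72 CPM in vehicle-treated osteocytes and 3.35 to 5.28 CPM in FG-4592-treated osteocytes. By mean CPM Tubb3 was the largest part of the sum in every condition. In MSC vehicle replicate 1, however, Syp (1.04 CPM) stood above Tubb3 (0.745 CPM). Tubb3 was called higher with FG-4592 in MSCs (1.07 and 3.05 CPM) and rose in osteocytes. The other 2 tested, Syp and Syt1, did not pass in either cell type, and Rbfox3, Snap25, Nefl and Stmn2 had at most 8 counts in any library.

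**Figure D2:**
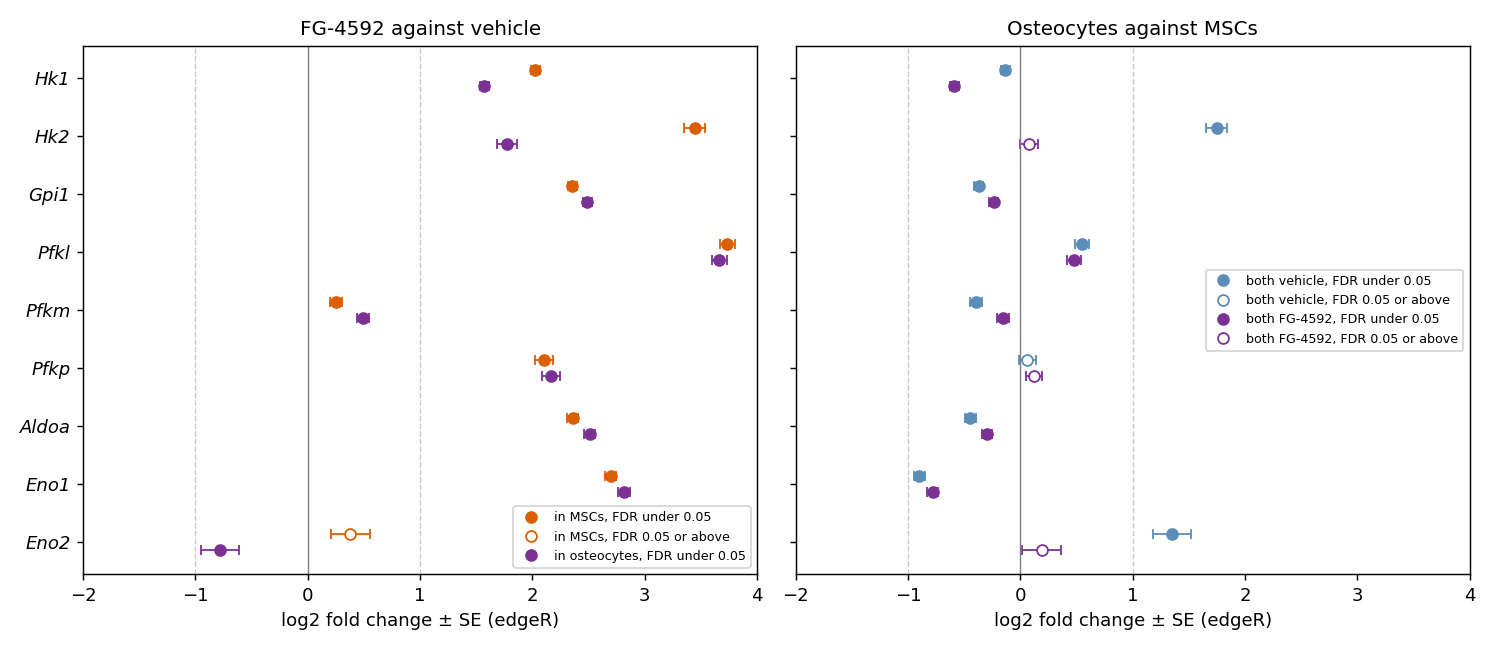
Log2 fold change ± SE from edgeR for the 9 tested genes, FG-4592 against vehicle on the left and osteocytes against MSCs on the right, with filled points at an FDR under 0.05 and dashed lines at a log2 fold change of 1 in either direction. Hk2 and Eno2 show the widest gaps between the cell types on the left, and on the right they are the only points beyond 1, both in vehicle.

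Of the 9 tested genes, 4 responded differently to FG-4592 in the cell types: Hk1, Hk2 and Eno2 had a lower log2 fold change in osteocytes and Pfkm a higher one, where 11% of all genes tested were lower and 13.3% higher. Hk2 and Eno2 were called lower, where 1.07% of all genes tested were called lower and 3.94% higher. For the other 5 the test of the difference did not pass, which does not show that the responses were alike.

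Fewer of the genes were called between the cell types than with FG-4592. In vehicle, 5 of the 9 tested genes were lower in osteocytes than in MSCs, 3 were higher and Pfkp did not pass the test, beside 24.9% lower and 26% higher over all genes tested. The median log2 difference of the 9 was -0.13, beside -0.01 over all genes tested. The 2 called genes, both higher, were Hk2 and Eno2, where 9.83% of all genes tested were called higher and 6.08% lower. In 3 genes all libraries were higher in osteocytes and in 5 all were lower, where 28.7% and 28.2% of all genes tested did not overlap in these directions. Eno2 was 2.55-fold higher (log2 1.35 ± 0.171, FDR 6.24e-06) and Pfkl 1.46-fold higher (FDR 1.92e-06). Eno1 showed the largest fall, 1.87-fold (log2 -0.90 ± 0.0505, FDR 3.70e-10). Aldoa was 1.36-fold lower, Pfkm 1.32-fold lower and Gpi1 1.29-fold lower. Hk1 was lower as well, with a log2 difference of -0.13 ± 0.0400 (FDR 0.01) that no longer passed the test when any of 5 of the 6 vehicle libraries was left out (FDR 0.074 to 0.114).

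With FG-4592 in both cell types, none of the 9 genes was called in either direction, while 12.6% of all genes tested were called higher in osteocytes and 5.64% lower. By FDR alone, Pfkl was higher in osteocytes, Hk1, Gpi1, Pfkm, Aldoa and Eno1 were lower, and Hk2, Pfkp and Eno2 did not pass the test, where 30.5% of all genes tested were higher and 25.3% lower. All libraries were higher in osteocytes for 2 genes, Pfkl and Pfkp, and lower for 5, where 34.5% and 29.6% of all genes tested did not overlap in these directions. The median log2 difference of the 9 was -0.15, beside 0.03 over all genes tested. Eno1 again differed most, 1.72-fold lower (FDR 1.46e-09), followed by Hk1 (log2 -0.59 ± 0.0397, FDR 2.78e-09). The lower level of Pfkm (log2 -0.15 ± 0.0524, FDR 0.02) did not pass the test when any of 3 libraries was left out, at an FDR of up to 0.080. Markers of adipocytes moved with differentiation as well: of 6 listed, 5 were tested and all 5 were higher in osteocytes in both treatments, beside 26% of all genes tested in vehicle and 30.5% with FG-4592, while Lep had at most 3 counts. Their summed level was 82.8 to 89.1 CPM in vehicle-treated MSCs, 69.9 to 73.0 CPM in MSCs with FG-4592, 1683 to 2310 CPM in vehicle-treated osteocytes and 1924 to 2297 CPM in FG-4592-treated osteocytes. Most of it was Pparg in MSCs (73.9 CPM in vehicle) and Adipoq in osteocytes (1470 CPM in vehicle). Pparg itself stood at 122 CPM in vehicle-treated osteocytes. The part of these markers in the differences of Hk2 or the other genes was not tested.

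Isoenzymes of a step were then compared within each library, as the log2 ratio of their counts per length of exon, which does not depend on library size. For 6 pairs, FG-4592 was compared with vehicle within each cell type, and osteocytes with MSCs within each treatment, by an exact two-sided permutation test within these strata (400 arrangements, smallest possible p = 0.005), with Benjamini-Hochberg adjustment over the 6 pairs. In both tests 5 of the 6 pairs reached that smallest p, at an adjusted p of 0.006. The exception was Aldoc:Aldoa, with an adjusted p of 0.125 with FG-4592 and 0.59 with differentiation in the exact permutation test. With Aldoc counts of 0 in 2 libraries each of FG-4592-treated MSCs and vehicle-treated osteocytes, this ratio depends on the prior count added to each gene and on the rise of Aldoa, so it is no measured fold of Aldoc. With a prior count of 2 in place of 0.5 the adjusted p with FG-4592 was 0.03 in the exact permutation test, and nothing is read from it. How many pairs of other genes would reach the smallest p was not computed, so the count of 5 has no share beside it. The phosphofructokinase pairs are not independent, since each follows from the others.

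**Figure D3:**
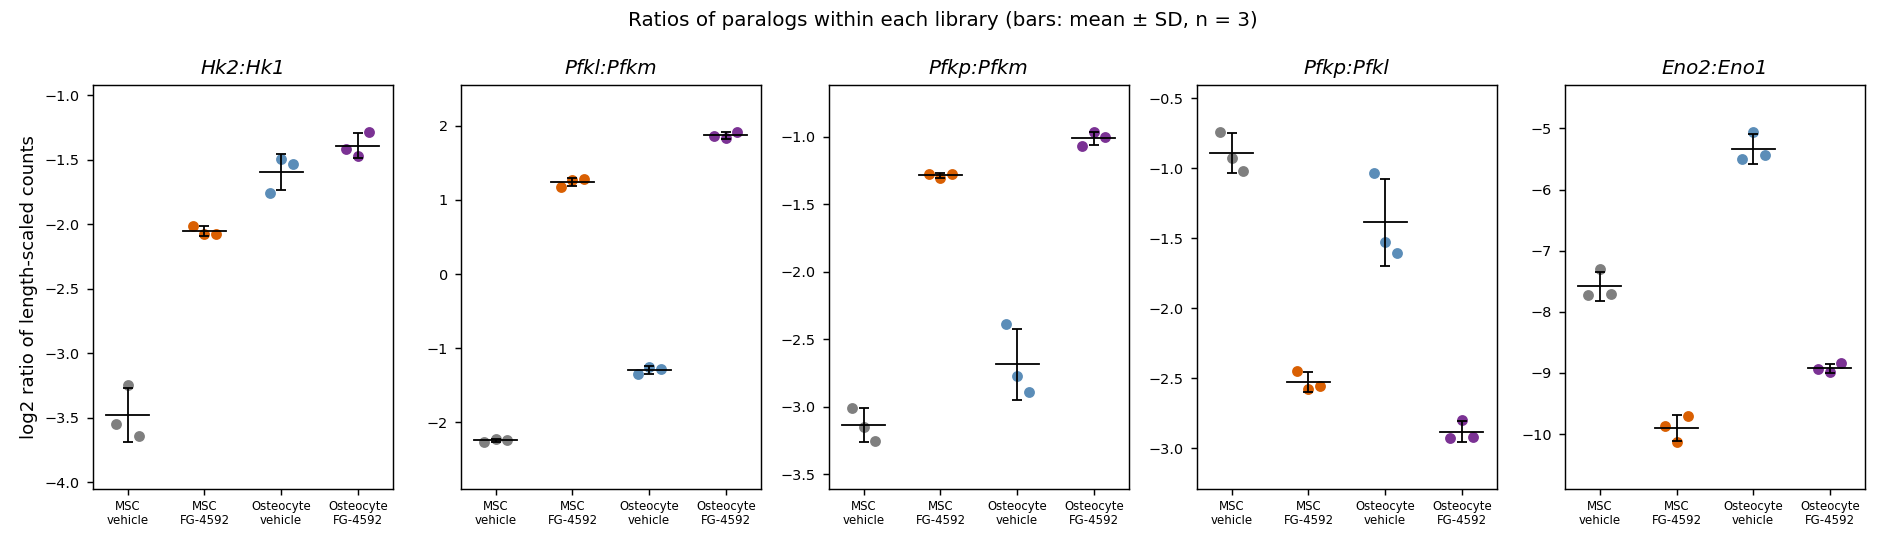
Log2 ratio of the counts per length of exon of a pair of paralogs in each library, with lines for means of 3 and error bars for the SD. Pfkl:Pfkm crosses 0 with FG-4592 in both cell types, Hk2:Hk1 moves mainly in MSCs, and Eno2:Eno1 drops in both.

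The balance between Pfkl and Pfkm turned over with FG-4592. The log2 ratio Pfkl:Pfkm was -2.27, -2.22 and -2.24 in vehicle-treated MSCs and 1.17, 1.27 and 1.28 with FG-4592, and in osteocytes -1.35, -1.25 and -1.29 and 1.86, 1.83 and 1.92. Pfkm was thus the higher of the pair in every vehicle library and Pfkl in every FG-4592 library. Averaged over the cell types, the ratio moved 10.0-fold toward Pfkl (log2 3.33, exact permutation test, adjusted p = 0.006). Pfkp also gained on Pfkm, 3.39-fold (log2 1.76, exact permutation test, adjusted p = 0.006), and lost ground to Pfkl by 2.95-fold (log2 -1.56, the same test and adjusted p).

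By length of all exons, Pfkm made up 75.5% ± 0.446 of the phosphofructokinase RNA in vehicle-treated MSCs and 63.9% ± 0.785 in vehicle-treated osteocytes, and 26.5% ± 0.669 and 19.4% ± 0.443 with FG-4592. The share of Pfkl was 15.9% ± 0.304 and 26.0% ± 1.13 in vehicle, and 62.6% ± 1.01 and 71.0% ± 0.751 with FG-4592. Pfkp stayed between 8.60% and 10.9% on average in every condition. All exons of Pfkp together span 13401 bases and its principal transcript 4145, and by the length of principal transcripts its share was 19.3% ± 1.40 in vehicle-treated MSCs and 19.8% ± 0.636 with FG-4592, and 21.2% ± 3.31 in vehicle-treated osteocytes and 17.3% ± 0.685 with FG-4592. On that scale Pfkm still led in vehicle, with 60.8% ± 0.896 in MSCs and 48.4% ± 1.51 in osteocytes, and Pfkl still led with FG-4592, with 63.0% ± 1.04 and 70.3% ± 0.859.

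**Figure D4:**
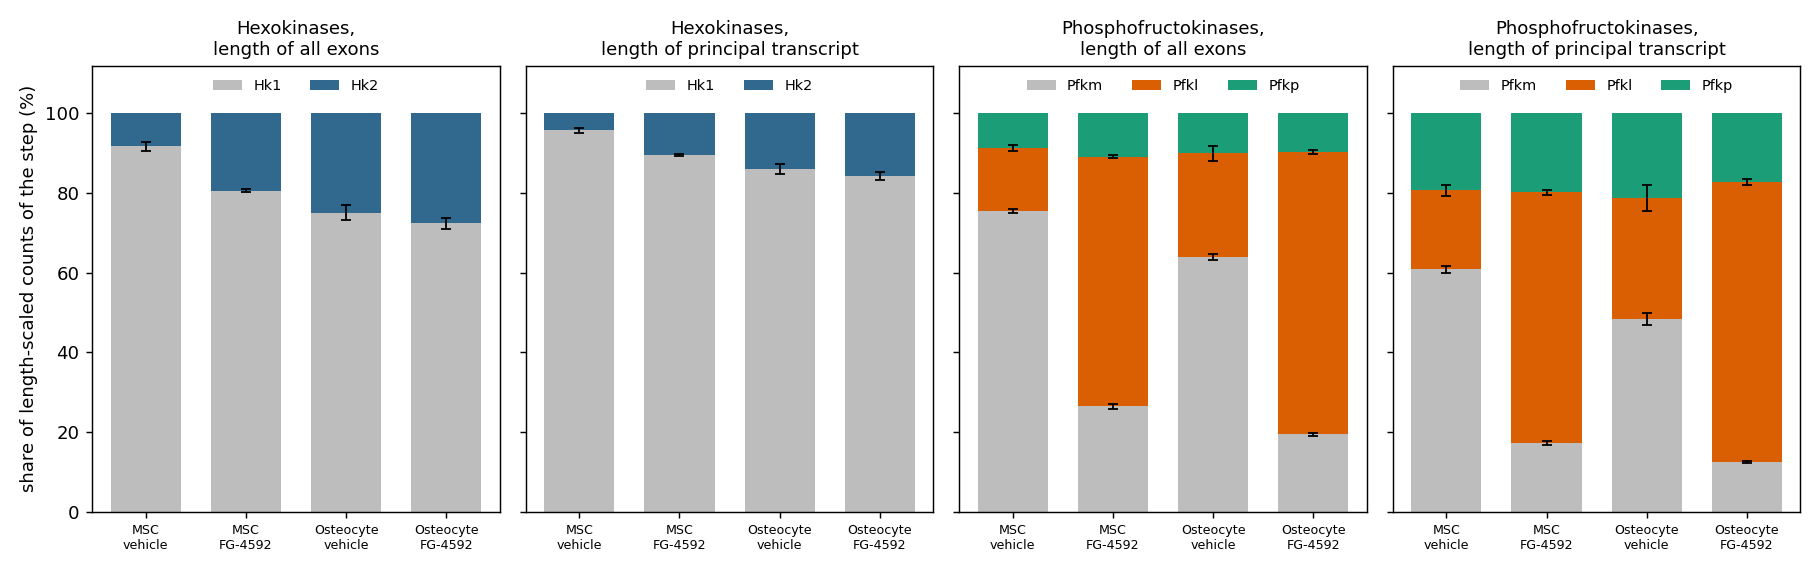
Mean share of each isoenzyme in the length-scaled counts of its step (%), stacked, for hexokinases and phosphofructokinases in the 4 conditions, with the length of all exons or of the principal transcript as the scale. Error bars are the SD of 3 libraries, of the Hk1 or Pfkm share at the lower border and of the Pfkp share at the upper one. Pfkl takes the largest share with FG-4592 in both cell types and on both scales, and Hk1 keeps the larger share of the hexokinases throughout.

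Among hexokinases, Hk1 stayed the more abundant RNA in every library. The log2 ratio Hk2:Hk1 was -3.55, -3.25 and -3.64 in vehicle-treated MSCs and -2.01, -2.08 and -2.07 with FG-4592, and in osteocytes -1.76, -1.49 and -1.54 and -1.42, -1.47 and -1.28. With FG-4592 the ratio moved 2.69-fold toward Hk2 in MSCs (log2 1.43 ± 0.122, SE) and 1.15-fold in osteocytes (log2 0.20 ± 0.0992, SE), where the libraries of the treatments lay next to each other without overlap. Within 1 cell type the smallest p that 3 against 3 libraries allow is 0.1 in an exact permutation test, so these values were not tested alone. Over both cell types the movement was 1.76-fold (log2 0.82, exact permutation test, adjusted p = 0.006), and differentiation moved the ratio toward Hk2 3.70-fold in vehicle and 1.58-fold with FG-4592, or 2.42-fold on average (log2 1.27, the same test and adjusted p). By length of all exons, the share of Hk2 was 8.26% ± 1.12 in vehicle-treated MSCs, 19.4% ± 0.403 with FG-4592, 24.9% ± 1.81 in vehicle-treated osteocytes and 27.6% ± 1.36 with FG-4592, and by principal transcripts 4.22% ± 0.599, 10.5% ± 0.243, 13.9% ± 1.15 and 15.7% ± 0.904.

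Eno2 was a small part of the enolase RNA in every condition. The log2 ratio Eno2:Eno1 was -7.73, -7.31 and -7.70 in vehicle-treated MSCs and -9.86, -10.13 and -9.70 with FG-4592, and in osteocytes -5.51, -5.05 and -5.44 and -8.94, -8.98 and -8.84. FG-4592 lowered it 4.98-fold in MSCs and 12.0-fold in osteocytes (log2 -2.95 on average over both, exact permutation test, adjusted p = 0.006). Differentiation raised it 4.74-fold in vehicle and 1.96-fold with FG-4592, or 3.05-fold on average (log2 1.61, the same test and adjusted p). By length of all exons, the share of Eno2 was 0.523% ± 0.0894 in vehicle-treated MSCs, 0.105% ± 0.0156 in MSCs with FG-4592, 2.44% ± 0.423 in vehicle-treated osteocytes and 0.205% ± 0.0101 in FG-4592-treated osteocytes, and by principal transcripts 0.332% ± 0.0569, 0.0668% ± 0.00988, 1.56% ± 0.273 and 0.130% ± 0.00643.

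The phosphofructokinase pairs also differed between the cell types. Over both treatments the ratio moved 1.73-fold toward Pfkl for Pfkl:Pfkm (log2 0.79), 1.29-fold toward Pfkp for Pfkp:Pfkm (log2 0.36) and 1.34-fold toward Pfkl for Pfkp:Pfkl (log2 -0.42), each at an adjusted p of 0.006 in the exact permutation test.

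Ordered by CPM per kilobase of exon, Aldoa led in all 4 conditions, followed by Eno1 and Gpi1. Aldoa measured 137 ± 3.92 CPM per kilobase in vehicle-treated MSCs and 705 ± 41.4 with FG-4592, and Eno1 81.1 ± 2.88 and 525 ± 16.9. In vehicle-treated MSCs the order then ran Pfkm, Hk1, Pfkl, Pfkp, Hk2, Eno2 and Aldoc, with no overlap between neighbours. In vehicle-treated osteocytes Pfkm (18.2 ± 1.05) and Hk1 (17.9 ± 0.282) overlapped, and Hk2 stood above Pfkp, as it did in both FG-4592 conditions. With FG-4592, Pfkl moved up to the fifth place in MSCs (67.3 ± 3.23) and the fourth in osteocytes (93.5 ± 2.78), while Eno2 and Aldoc stayed last. By principal transcript length Eno1 (1394 ± 44.9) and Aldoa (1358 ± 79.7) overlapped in FG-4592-treated MSCs, Pfkp stood above Pfkm in both FG-4592 conditions, Hk1 stood above Pfkm in both vehicle conditions, Pfkp stood above Hk2 in all 4 conditions, and Pfkl and Pfkp overlapped in vehicle-treated MSCs, so that these places depend on the length used.

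Of the paralogs Hk3, Hkdc1, Eno1b, Eno3 and Eno4, which are outside the 10 genes, Eno1b and Eno3 had more than 18 counts in every library. Hk3 and Hkdc1 had at most 4 counts in any library and were not tested, and Eno4 was tested with 2 to 18 counts and did not pass in either cell type. Eno3, the muscle enolase, fell in both cell types, 1.69-fold in MSCs (FDR 0.0021) and 1.37-fold in osteocytes (FDR 0.036). Among the enolases Eno1 and Eno1b thus rose in both cell types, Eno3 fell in both and Eno2 fell in osteocytes only. Because Eno1 and Eno1b share near-identical stretches, the rise of Eno1b cannot be told apart from reads of Eno1.

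Of the other 10 glycolysis genes, 6 were tested and 5 were called higher with FG-4592 in both cell types: Tpi1, Gapdh, Pgk1, Pgam1 and Pkm, beside 4.12% of all genes tested in MSCs and 6.25% in osteocytes. Their rises ran from 3.41-fold (Pkm, a pyruvate kinase) to 12.3-fold (Pgk1, phosphoglycerate kinase) in MSCs, and from 5.70-fold (Pkm) to 13.0-fold (Pgk1) in osteocytes. Bpgm, which diverts an intermediate to 2,3-bisphosphoglycerate, fell 1.34-fold in osteocytes (FDR 3.16e-04) and had a log2 fold change of -0.16 ± 0.0767 in MSCs (FDR 0.13).

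Phosphofructokinase is activated by fructose 2,6-bisphosphate, which the PFKFB enzymes make and break down, and Tigar also lowers. All 5 genes of this list were tested. With FG-4592, 1 rose and 2 fell in MSCs and 2 rose and 2 fell in osteocytes, where 17.6% and 21.9% of all genes tested rose and 20.4% and 22% fell. Pfkfb3, whose product mainly makes the activator, fell in MSCs from 12.1 ± 0.661 to 9.27 ± 0.984 CPM (FDR 0.0015) and in osteocytes from 109.6 ± 5.07 to 30.2 ± 2.24 CPM (FDR 1.18e-11), where it was called lower. Pfkfb4 rose 1.36-fold in MSCs (FDR 0.0092) and 1.75-fold in osteocytes (FDR 6.51e-05). Pfkfb1 fell in MSCs (log2 -0.53 ± 0.198, FDR 0.046), and in osteocytes Pfkfb2 rose (log2 0.33 ± 0.106, FDR 0.018) and Tigar fell (log2 -0.31 ± 0.116, FDR 0.038).

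Of 10 enzymes that act on the same intermediates in the opposite or a side direction, 5 were tested, 3 rose in each cell type and none fell, where 17.6% and 21.9% of all genes tested rose and 20.4% and 22% fell in MSCs and osteocytes. G6pdx, which opens the pentose phosphate pathway, rose 1.72-fold in MSCs (FDR 5.33e-10) and 1.41-fold in osteocytes (FDR 9.51e-08). Gfpt2, which takes fructose 6-phosphate into hexosamine synthesis, was the only called gene of this list, 3.63-fold higher in osteocytes (FDR 1.44e-10), where 6.25% of all genes tested were called higher.

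The genes most like each tested gene across the 12 libraries were ranked by Pearson's r of log2 CPM, leaving out genes whose mean stayed below 100 counts in every condition. Gpi1 was most like Aldoa (r = 0.999) and then Tpi1, Pfkl was most like Egln1 (r = 0.999), which encodes the HIF prolyl hydroxylase Phd2, and Eno1 was most like Mthfd1l (r = 0.998). Hk1 was most like Lonp1 (r = 0.998), Pfkp like Rcor2 (r = 0.998), Hk2 like Cd3eap (r = 0.992), Pfkm like Glt1d1 (r = 0.985) and Eno2 like Arnt2 (r = 0.955). The 12 libraries fall into 4 conditions, so these values describe a shared pattern of condition means and carry no test.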

How the data were processed

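RNAseq libraries of 12 MPC2 samples, 3 in each of 4 conditions given by the sample labels, were analysed from the raw gene counts that the authors deposited. The authors aligned read pairs to mm10 with STAR 2.7.2a and counted them per gene with featureCounts of Subread 1.6.2 on Gencode annotation, without strand and with a pair counted for every gene it overlaps. Genes that exceeded 10 counts in 3 or more libraries were then analysed with edgeR 4.0.16 in R 4.3.3 (TMM, quasi-likelihood test, 1 coefficient per condition, Benjamini-Hochberg adjustment over all tested genes), and the fit was tested on simulated data. CPM were computed from the TMM-adjusted totals of tested genes. Ratios of paralogs used a prior count of 0.5 and exact permutations. Exon lengths and exonic overlaps came from the count table, principal transcripts from Gencode and promoters from RefSeq (GRCm38.p6). Near-identical stretches came from blastn 2.17.0 on Gencode transcripts. The Gencode release used for these differed from the one behind the authors' counts. DESeq2 1.42.0 and other settings served as alternatives. Genes named were the 10 members, fixed lists of related genes, and for each member the genes of highest correlation. The members and lists were chosen with earlier results of these data known. Depth (52829185 to 68108470 counts) gave every tested member at least 100 counts in every library. Some related genes of the lists are not reported here.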

Additional observations from a re-analysis of the deposited data

Results flagged for a closer look

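In 4 of the 9 tested genes the response to FG-4592 differed between osteocytes and MSCs by edgeR's test of the difference itself, where 13.3% of all genes tested were higher and 11% lower in osteocytes. Hk2 differed by -1.67 on the log2 scale (SE 0.123, FDR 1.02e-07), Eno2 by -1.16 (SE 0.240, FDR 0.0021), Hk1 by -0.45 (SE 0.0563, FDR 2.48e-05) and Pfkm by 0.24 (SE 0.0744, FDR 0.026). The Pfkm difference no longer passed when any of 6 of the 12 libraries was left out (FDR 0.064 to 0.139). Negative values mean a lower log2 fold change in osteocytes. With 3 libraries in each condition, single libraries were not examined for distance from their group.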

How the results depend on the processing

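The counts of called genes moved by more than the set limit under 1 alternative only, which left out genes that share exonic bases with another gene. This removed Hk1, Gpi1, Pfkm, Pfkp and Aldoa. Of the 9 genes 4 were left in the test, and 3 were called with FG-4592 in MSCs and 3 in osteocytes, in place of 7, because fewer genes were tested. Leaving out each library in turn gave 7, 7, 2, 0 and 2 called genes in the 5 comparisons each time. Replicate numbers did not pair the libraries (correlations of deviations from -0.05 to 0.05, 0 of 12 same-numbered pairs over 0.1, and 2 of these 12 pairs above the pairs of unlike numbers). With the replicate block, counts of called genes did not change, and the paralog pairs other than Aldoc:Aldoa had a p of 0.03125, the smallest that 64 block arrangements give, and an adjusted p of 0.0375 in the exact permutation test. Aldoc:Aldoa with FG-4592 was -2.24 at a prior count of 2, with an adjusted p of 0.03 in the exact permutation test, a value set in part by the prior count because Aldoc had counts of 0. The Pfkp response difference, which did not pass the test, changed sign in 3 of 12 cases with a library left out and ranged from -0.0361 to 0.126, and the Pfkp difference between vehicle-treated cell types changed sign without Osteocyte vehicle replicate 1 and ranged from -0.0140 to 0.143. The cause was not tested. Among other fold changes with a library left out, 521 kept their direction and side of the threshold, 14 no longer passed and 1 newly passed. With only the compared libraries in the fit, Hk1 between vehicle-treated cell types had an FDR of 0.0502. Shares within a step, recomputed with principal transcript length (chosen after seeing the data), moved by more than 1 SD in 28 of 36 cases. Aldoc did not pass the count filter and was not tested.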
